A study of Rattus norvegicus with 24 samples.

Results

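The hearts described here are those of control rats killed 14 days into a feeding study, set against those of control rats killed on its first day, with the controls of day 3 as the middle point. They make up 12 of the 24 arrays of the series, and the main comparison uses 8 of them, 4 rats of day 14 and 4 of day 1. The arrays were taken by their titles, which name the treatment and the day. All were male RccHan Wistar rats that entered the study at 7 to 8 weeks of age, received feed with 0 ppm rotenone and were killed after 1, 3 or 14 days. From each rat about 30 mg of the apex of the left ventricle was taken, and 300 ng of its RNA was labelled for 1 array. Of the 5 rats assigned to each group 4 were arrayed. The other 12 arrays are of rats fed 400 ppm rotenone, an inhibitor of respiratory complex I, for the same days, and they enter here to estimate the spread and in 1 comparison near the end. Each rat was sampled once, so that age, days in the study and the handling of each necropsy day and its arrays cannot be told apart. A rat of 7 to 8 weeks is a young adult that is still gaining weight, so the comparison covers late growth and not the weeks around birth.

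The rat heart grows after birth first by division of its muscle cells and then mainly by their enlargement, while fibroblasts and endothelial cells go on dividing and lay down the collagen network and the capillaries. As growth slows, genes of mitosis, of DNA copying and of new matrix are known to recede, together with a group of imprinted genes (genes expressed from 1 parental copy) that is highly active in fetal and juvenile tissue. The adult ventricle draws most of its energy from fatty acids, with glucose, lactate, ketone bodies and branched-chain amino acids as further fuels.

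No gene passed the test between the control hearts of day 14 and day 1. In limma's test over 68842 transcript clusters (the array's probe sets, about 1 per transcript locus), 0 had a Benjamini-Hochberg adjusted p below 0.05, and the smallest adjusted p was 0.0945, for Mest. At an unadjusted p below 0.05 there were 5013, or 7.28%, of which 2669 (3.88%) had the higher mean on day 14 and 2344 (3.4%) the lower. The values below are therefore given as levels and differences on the log2 scale of the deposited intensity, in which 1 unit is a doubling, and groups of genes are described by counts beside the counts over all 22093 genes. Among all genes the mean was lower on day 14 for 43.6% and higher for 56.4%, the unadjusted p was below 0.05 for 3.44% (lower) and 4.1% (higher), and the 4 day 14 values all lay below the 4 day 1 values for 2.82% and all above for 3.14%. The median difference over all genes was 0.02.

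Of 36 gene groups described by their counts and medians, the fibrillar collagens, the mitotic spindle and the endothelial markers had the lowest medians on day 14, and the genes of branched-chain amino acid and ketone use had the highest. Of the 17 endothelial markers only 2 had day 14 values all below those of day 1. The 12 control arrays had median intensities from 30.6 to 35.0, and arrays of the same group correlated with each other at 0.987 to 0.990 on average. The 13 measured cardiomyocyte markers averaged 17.77 to 17.82 in the day 1 rats and 17.65 to 17.75 in the day 14 rats, with a median difference of -0.002. Single markers ran from -1.29, for Nppa, to 0.13. The highest intensity was 999970 on each of the 12 control arrays, and whether such a limit held down the brightest markers was not tested. A level of 8.44, which 95% of the array's 1153 negative control probes did not exceed, served as a bound for dim signals. All 13 of these markers and 5114 genes (23.1%) over all had a mean above it. Of the genes above it 4.89% were lower and 6.59% higher on day 14 at an unadjusted p below 0.05, and of those below it 3% and 3.35%.

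**Figure D1:**
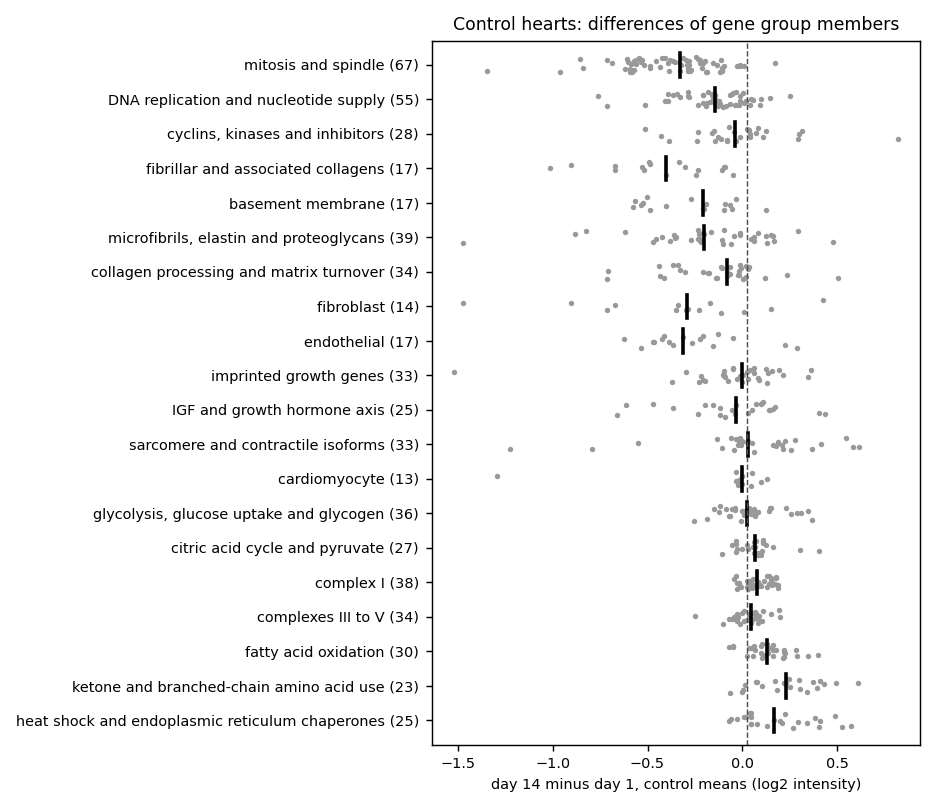
Difference between the control means of day 14 and day 1 (log2 intensity, horizontal axis) for the measured members of 20 gene groups (vertical axis, number of members in parentheses). Grey points are genes, the black bar is the group's median, and the dashed line is the median over all genes, 0.02. The points of the spindle, collagen and basement membrane groups lie mostly left of the line, with medians of -0.33, -0.40 and -0.21, and those of fatty acid oxidation and of branched-chain amino acid and ketone use mostly right, with 0.13 and 0.23.

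Genes of mitosis and the spindle were lower on day 14 almost throughout. Of 67 measured members 65 had the lower mean, 44 (65.7%) with an unadjusted p below 0.05, and 23 (34.3%) had all 4 day 14 values below all 4 day 1 values. The median difference was -0.33. The members with a higher mean were Aurka, a kinase of the spindle poles, with 0.17 ± 0.09 (SE), and Spc24, a kinetochore protein, with 0.0091. No member passed the adjusted test. Over all 24 arrays only Smc4, a condensin subunit, had a mean above the bound of 8.44. Of the others, Mki67 and Ncapg2, a further condensin subunit (-0.36 ± 0.17), averaged above it on day 1, and all remaining members had dim signals there.

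The promoters of this group are shown as background on its members, which were listed as genes of mitosis and the spindle. The shares of motifs below describe that list and not the difference between the days. Genes of late cell cycle phases are known to carry a cell cycle homology region (CHR), commonly TTTGAA, and CCAAT boxes. In the RefSeq windows of the rat assembly GRCr8, 250 bases before to 50 after the gene's start, 56 of the 67 members were found by symbol. TTTGAA was looked for on both strands (also as TTCAAA), and 38 of the 56 windows (67.9%) held it, against 18.1% of all 27457 windows in the table. CCAAT or ATTGG stood in 40 (71.4%) against 37.7%, and both motifs in 30 (53.6%) against 7.25%. The DNA replication genes had CCAAT in 60.4% and TTTGAA in 16.7% of 48 windows, and the collagens had 3 and 1 of 12. A match is a string of letters and was not tested as a binding site. Below are the windows of the 3 spindle genes with both motifs, values that do not overlap and the smallest p, written 5′ to 3′ on the gene's strand with the matches in capitals.
Plk1, chr1:186147408-186147707, plus strand: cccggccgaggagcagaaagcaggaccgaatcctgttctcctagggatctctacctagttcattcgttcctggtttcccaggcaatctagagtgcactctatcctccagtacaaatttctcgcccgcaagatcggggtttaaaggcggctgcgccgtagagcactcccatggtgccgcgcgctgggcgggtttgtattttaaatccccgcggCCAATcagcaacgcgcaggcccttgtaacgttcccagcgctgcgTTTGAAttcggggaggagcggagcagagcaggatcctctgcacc
Top2a, chr10:84473044-84473343, minus strand: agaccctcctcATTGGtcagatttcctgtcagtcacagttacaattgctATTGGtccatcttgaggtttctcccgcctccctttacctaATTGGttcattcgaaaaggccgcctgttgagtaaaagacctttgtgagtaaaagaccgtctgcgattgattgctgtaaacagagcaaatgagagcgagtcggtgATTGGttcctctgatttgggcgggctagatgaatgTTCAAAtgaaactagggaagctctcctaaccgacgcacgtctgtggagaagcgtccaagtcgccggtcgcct
Mki67, chr1:199952544-199952843, minus strand: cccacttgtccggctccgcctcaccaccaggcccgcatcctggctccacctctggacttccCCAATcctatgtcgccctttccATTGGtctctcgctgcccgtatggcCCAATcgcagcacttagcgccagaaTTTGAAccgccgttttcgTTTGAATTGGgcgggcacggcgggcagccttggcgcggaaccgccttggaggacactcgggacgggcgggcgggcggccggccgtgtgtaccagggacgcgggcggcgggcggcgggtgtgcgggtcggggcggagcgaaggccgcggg
The Plk1 window has 1 CCAAT 38 bases before the start and TTTGAA just after it. Top2a has 4 inverted boxes (ATTGG) and TTCAAA 22 bases before the start. In Mki67, TTTGAA stands 117 and 99 bases before the start, and the second copy runs into an inverted CCAAT box.

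Mki67, the proliferation antigen that coats mitotic chromosomes, read 9.18, 9.71, 9.30 and 9.68 in the 4 day 1 rats, 9.41, 9.57, 9.05 and 9.34 on day 3 and 9.10, 6.73, 8.24 and 8.41 on day 14. Every day 14 value lay below every day 1 value, but rat 1 of day 14 missed the lowest of day 1 narrowly and rat 2 stood far below the rest. The mean difference was -1.35 ± 0.35 (SE, n = 4 and 4), a level 2.55 times as high on day 1, with an adjusted p of 0.488. Rats 2 to 4 of day 14 lay below the bound, and all rats of days 1 and 3 above it. Top2a, the topoisomerase that untangles chromosomes before they part, went from 7.63, 8.11, 7.71 and 7.94 to 7.60, 5.87, 7.07 and 7.00. It showed the same order of the day 14 rats, with rat 1 highest and rat 2 lowest. Its difference was -0.96 ± 0.25. The smallest p of the group belonged to Plk1, the polo-like kinase of mitotic entry and exit, at 6.32, 6.69, 6.38 and 6.53 on day 1 and 6.22, 5.49, 5.83 and 6.06 on day 14. Its groups did not overlap, and its difference was -0.58 ± 0.14 (adjusted p = 0.479).

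Cyclin A2 (Ccna2), which drives S phase and mitotic entry, had 7.18, 7.42, 7.04 and 7.17 on day 1 and 6.94, 5.50, 6.43 and 6.52 on day 14, a difference of -0.85 ± 0.23. Cyclin B1 (Ccnb1), the mitotic cyclin, differed less, from 5.80, 5.86, 5.80 and 6.03 to 5.66, 5.22, 5.77 and 5.56. Neither gene's groups overlapped. Its partner kinase Cdk1 did overlap, since day 14 rat 1 stood at 5.49 within the day 1 range of 5.40 to 5.84, and the other rats stood at 4.92, 5.11 and 5.05. The spindle motor Kif11 (-0.71 ± 0.20), the spindle pole protein Aspm (-0.62 ± 0.17) and the cytokinesis regulator Racgap1 (-0.39 ± 0.10) were lower without overlap, and the kinetochore protein Ndc80 (-0.69 ± 0.18) was lower with overlap in 1 rat.

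The group score of each rat, the median over the 67 members of its value minus the day 1 mean, was -0.089, 0.061, -0.046 and 0.09 on day 1, -0.0094, 0.05, -0.15 and -0.084 on day 3 and -0.12, -0.62, -0.31 and -0.38 on day 14. Rats 2, 3 and 4 of day 14 lay below all rats of days 1 and 3, whereas rat 1 lay within the range of day 3. Leaving out 1 rat at a time kept the group's median between -0.41 and -0.25.

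**Figure D2:**
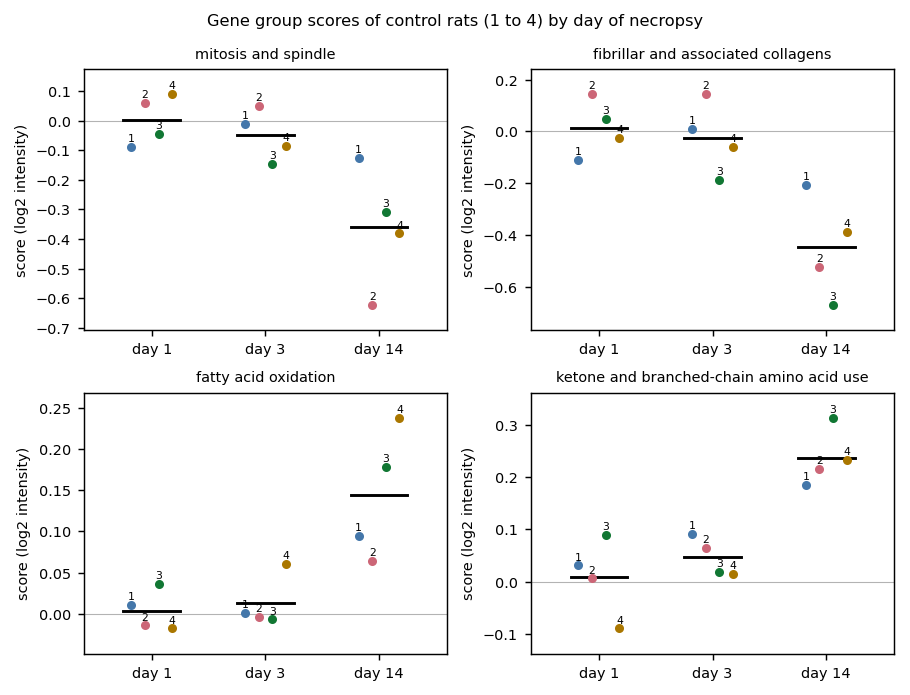
Score of 4 gene groups in each control rat (vertical axis, median over members of the log2 intensity minus the gene's mean on day 1) by day of necropsy (horizontal axis), with 4 rats a day as points numbered by rat and the day's mean as a bar. Spindle scores of day 14 rats 2 to 4 and collagen scores of all 4 day 14 rats lie below every day 1 and day 3 rat. Rat 1 is the highest of day 14 in both groups, at -0.12 and -0.21. The 4 day 14 scores of both fuel groups lie above every day 1 and day 3 rat.

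Genes of DNA replication and nucleotide supply were lower too, by less. Of 55 measured, 44 had the lower mean on day 14, 14 (25.5%) with an unadjusted p below 0.05 and 6 without overlap, and the median was -0.14. It was -0.33 over the 3 members above the bound. Prim1, the small subunit of the primase that starts each new strand, had the smallest p. It read 8.00, 8.29, 8.10 and 8.31 on day 1, 8.00, 8.27, 7.86 and 7.92 on day 3 and 7.70, 7.33, 7.40 and 7.23 on day 14. The days 1 and 3 overlapped each other and neither overlapped day 14, and the difference from day 1 was -0.76 ± 0.16 (adjusted p = 0.454). Dbf4, the activator of the Cdc7 origin kinase, differed by -0.51 ± 0.14, the helicase subunit Mcm6 by -0.41 ± 0.12 and the histone methyltransferase Ezh2 by -0.37 ± 0.10, all without overlap. The reductase subunit Rrm2 (-0.71 ± 0.22) overlapped in 1 rat, and Mcm5 had -0.21 ± 0.12. Pcna, the sliding clamp of the polymerases and a bright signal, went from 10.73, 10.79, 10.63 and 10.86 to 10.63, 10.29, 10.43 and 10.36, with rat 1 of day 14 equal to the lowest day 1 rat at 2 decimals. Fen1, the flap nuclease, went the other way with 0.25 ± 0.12.

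Cyclins, kinases and their inhibitors had a median of -0.04 over 28 members, 4 lower and 1 higher at an unadjusted p below 0.05. Over the 9 members above the bound the median was 0.041. Cyclin D1 (Ccnd1), the growth-factor-responsive G1 cyclin, stood out with day 1 values confined to 8.93 to 8.97 and day 14 values of 8.64, 8.24, 8.37 and 8.50. The gap between the days was larger than the whole range of day 1. The difference was -0.51 ± 0.14 (adjusted p = 0.49), and that of its partner Cdk6 was -0.38 ± 0.14, also without overlap. Cdkn1a, the p21 inhibitor, had the higher mean on day 14 (0.82 ± 0.44), but its rats ranged from 8.46 to 9.79 on day 1 and 9.24 to 10.54 on day 14.

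All 17 fibrillar and associated collagens had the lower mean on day 14, 9 (52.9%) of them with an unadjusted p below 0.05 and 6 (35.3%) without overlap. The median difference was -0.40. Unlike the spindle genes, 9 of these members were above the bound. In tissue RNA of this kind fewer fibroblasts and less collagen RNA per fibroblast cannot be told apart. Col3a1, the chain of collagen III, read 13.93, 14.49, 14.42 and 14.26 on day 1, 14.28, 14.50, 14.02 and 14.13 on day 3 and 13.89, 12.55, 13.10 and 13.50 on day 14. Day 14 rat 1 was only just below the lowest day 1 rat, and rats 2 to 4 were well below. The difference was -1.02 ± 0.32, which makes the day 1 level 2.02 times that of day 14 (adjusted p = 0.556). Col1a1, the main chain of collagen I, went from 12.66, 13.21, 13.16 and 12.89 to 12.57, 11.63, 11.70 and 12.41, a difference of -0.90 ± 0.29, and Col1a2, its partner chain, differed by -0.67 ± 0.24. Both sets of 4 lay apart, with rat 1 of day 14 nearest to day 1. Col5a1, a collagen V chain that starts fibrils, had the smallest p of the group, with 7.57, 7.71, 7.75 and 7.65 on day 1, 7.36, 6.98, 7.00 and 7.27 on day 14 and a difference of -0.52 ± 0.13 (adjusted p = 0.479).

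Proteins that accompany the collagen fibrils were lower too. Among 39 microfibril, elastin and proteoglycan genes 28 had the lower mean, 11 (28.2%) with an unadjusted p below 0.05 and 9 without overlap, and none was higher by either measure. The median was -0.20. Postn (periostin), a matricellular protein of growing and remodelling heart, had the largest difference of these. It read 8.27, 8.68, 8.52 and 8.52 on day 1, 8.65, 8.73, 7.97 and 8.21 on day 3 and 7.91, 6.00, 7.01 and 7.19 on day 14. All day 14 rats lay below both other days, widely spread with rat 2 lowest, and the difference was -1.47 ± 0.32 (adjusted p = 0.46). All day 14 values and 1 of day 1 lay below the bound. Fn1 (fibronectin) went from 10.95, 11.21, 11.82 and 11.77 to 10.66, 10.18, 10.50 and 10.88, with rat 4 of day 14 just below rat 1 of day 1. Its difference was -0.89 ± 0.28, and that of Fbn1, the fibrillin of microfibrils, was -0.82 ± 0.26. Elastin (Eln) had -0.46 ± 0.18 with overlap in 1 rat, and Sparc, a collagen-binding protein of bright signal, had -0.27 ± 0.14. Lox, the collagen cross-linking oxidase, had -0.022 ± 0.20.

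**Figure D3:**
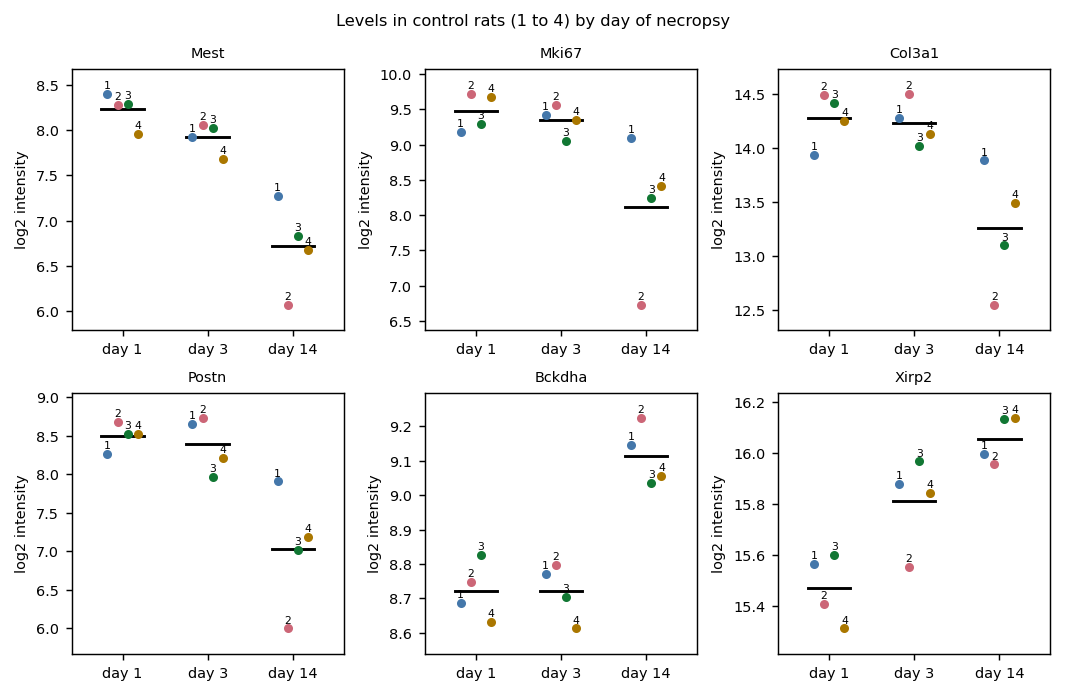
Log2 intensity (vertical axis) of 6 genes in each control rat by day of necropsy (horizontal axis), with points numbered by rat and the day's mean as a bar. Mest, Mki67, Col3a1 and Postn are lower in every day 14 rat than in every day 1 rat, and Bckdha and Xirp2 higher. Rat 1 of day 14 lies nearest to day 1 for Mest, Mki67, Col3a1 and Postn.

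Of the 17 basement membrane genes 16 were lower on day 14, 7 (41.2%) with an unadjusted p below 0.05 and 4 without overlap, and the median was -0.21. It was -0.40 over the 11 members above the bound. The laminin chain Lama4 went from 13.16, 13.20, 13.10 and 13.24 to 12.96, 12.21, 12.58 and 12.85. Its day 1 rats were within a narrow band, and all day 14 rats lay below it. The difference was -0.52 ± 0.16, that of the laminin chain Lamb1 was -0.58 ± 0.18, and those of the nidogens, which tie laminin to collagen IV, were -0.50 ± 0.23 for Nid1 and -0.54 ± 0.16 for Nid2. Collagen processing genes had a smaller median of -0.079 over 34 members, 7 of them lower at an unadjusted p below 0.05. Fap, the surface protease of active fibroblasts, was the exception in size, with 7.72, 7.80, 7.49 and 7.90 on day 1 and 7.41, 6.63, 7.04 and 6.97 on day 14. These groups were apart, and the difference was -0.71 ± 0.15 (adjusted p = 0.46). Bmp1, which cleaves procollagen, had -0.36 ± 0.13.

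Fibroblast, endothelial and smooth muscle markers had lower medians beside these groups. The 14 fibroblast markers had a median of -0.29 and a mean level of 10.26 to 10.68 on day 1 and 9.88 to 10.32 on day 14, 11 of them lower. The members without overlap were Fap, Postn, Col1a1 and Col1a2, which are also counted in the matrix groups above. Dcn (decorin) had 0.15 ± 0.19, the receptor Pdgfra -0.11 ± 0.21 and the lineage factor Tcf21 -0.30 ± 0.19, all with overlap. Gsn was among the 3 markers with the higher mean, at 0.30 to 0.54 leaving out 1 rat, also with overlap. The 17 endothelial markers had a median of -0.31, 15 of them lower and 5 of these with an unadjusted p below 0.05, at a mean level of 10.62 to 10.95 on day 1 and 10.26 to 10.70 on day 14. At that level Plvap, of the diaphragms of fenestrae and caveolae, was higher (0.23 ± 0.10). Cav1, the coat protein of caveolae, differed by -0.36 ± 0.13 without overlap and the tight junction protein Cldn5 by -0.62 ± 0.24, while the defining adhesion molecules Pecam1 (-0.13 ± 0.20) and Cdh5 (-0.27 ± 0.20) overlapped. The endothelial score was 0.19, 0.13, -0.12 and -0.16 on day 1 and 0.020, -0.46, -0.063 and -0.56 on day 14. Rats 1 and 3 of day 14 thus lay within the day 1 range. The 12 smooth muscle and pericyte markers had -0.24. The part of these cells in the matrix and spindle differences was not tested. Leukocyte markers (24, median -0.045) and those of red cells (24, median 0.064) had no member without overlap.

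Mest was the gene with the smallest p of all 68842 transcript clusters. It is a paternally expressed member of the alpha/beta hydrolase fold family that is most active in growing mesoderm. It read 8.40, 8.28, 8.30 and 7.96 in the 4 rats of day 1, 7.92, 8.06, 8.03 and 7.69 in those of day 3 and 7.27, 6.07, 6.83 and 6.68 in those of day 14. The highest rat of day 14 lay below the lowest rat of both other days, and the day 3 rats lay in the lower part of the day 1 range or below it. The mean was 8.23 ± 0.19 (SD) on day 1 and 6.71 ± 0.50 on day 14, a difference of -1.52 ± 0.23 (SE), with an adjusted p of 0.0945. All control values of Mest lay below the bound of 8.44. A dimmer transcript cluster of Mest differed by -0.86 ± 0.16. The adjusted p was 0.0228 with 1 transcript cluster per gene tested and 0.554 without rat 2 of day 14, and over 20 settings it ran from 9.04e-04, with the first 2 within-group components removed, to 0.554.

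The other imprinted growth genes had means on both sides. Of 33 measured, 17 were lower and 16 higher on day 14, with a median of -0.0012, and 2 lower and 1 higher had an unadjusted p below 0.05. Besides Mest the lower one was Plagl1, a zinc finger regulator of other imprinted genes, with 6.56, 6.85, 6.98 and 6.95 on day 1 and 6.44, 6.63, 6.45 and 6.32 on day 14. The groups overlapped through the lowest day 1 rat, and the difference was -0.37 ± 0.16. Zim1, another imprinted zinc finger gene, was the higher one, without overlap, with 0.36 ± 0.13. The fetal growth factor Igf2 read 7.01, 6.85, 7.28 and 7.18 on day 1 and 7.15, 6.79, 6.48 and 7.11 on day 14, below the bound of 8.44 in every control rat, and its difference was -0.20 ± 0.19. Also below it in every control rat were Dlk1 (0.16 ± 0.12), a Notch-like ligand, the noncoding Meg3 (-0.048 ± 0.09), Cdkn1c (0.19 ± 0.11), the p57 cell cycle inhibitor, and Ndn (-0.10 ± 0.18), which encodes necdin. Members above the bound had -0.21 ± 0.16 for the receptor adaptor Grb10, -0.089 ± 0.25 for the zinc finger gene Peg3 and -0.10 ± 0.13 for Igf2r, the receptor that clears Igf2. H19 had no probe set of its own symbol here and was not analysed.

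**Figure D4:**
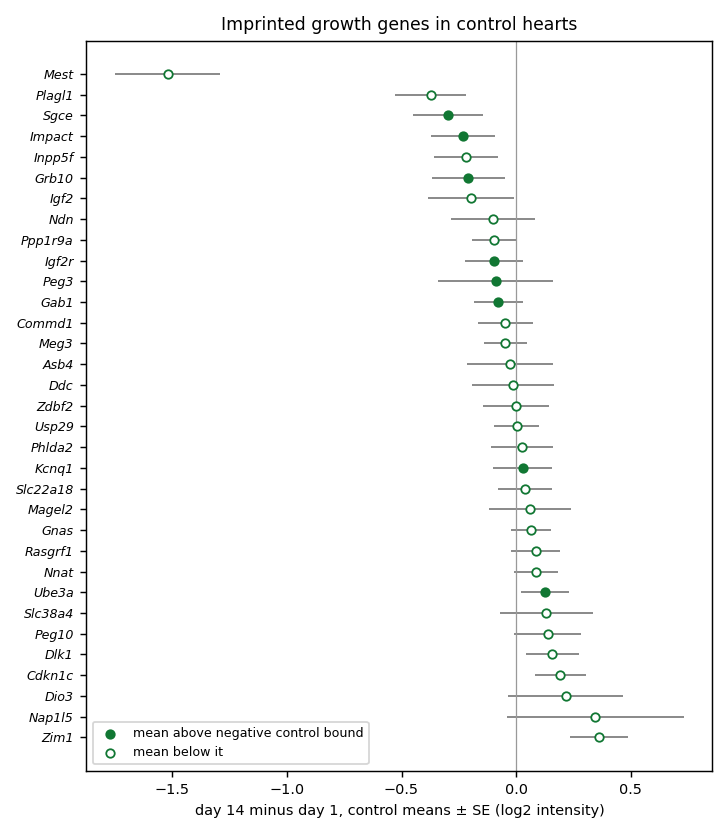
Difference between the control means of day 14 and day 1 (log2 intensity, horizontal axis, bars ± 1 SE, 4 rats a day) for the 33 measured imprinted growth genes (vertical axis, sorted), filled where the gene's mean exceeds the negative control bound of 8.44. Mest lies at -1.52, and the other genes lie between -0.37 and 0.36.

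In the IGF and growth hormone axis (25 genes, median -0.035) single members had means on both sides, and the median was 0.028 with all transcript clusters of a gene averaged. Igf1, the growth factor through which growth hormone acts, was 10.55, 10.78, 10.67 and 10.72 on day 1, 10.58, 10.93, 10.34 and 10.70 on day 3 and 10.01, 10.03, 9.82 and 10.39 on day 14. No day 14 rat reached the lowest day 1 rat, and the difference was -0.62 ± 0.21 (adjusted p = 0.594). Stc1, a secreted glycoprotein hormone, differed by -0.66 ± 0.20, also without overlap. The insulin receptor Insr was higher on day 14, at 10.59, 10.47, 10.74 and 10.54 on day 1 and 11.16, 11.00, 10.99 and 10.92 on day 14. The groups did not overlap and the difference was 0.44 ± 0.15. The insulin receptor substrate Irs1 (0.41 ± 0.18) and the growth hormone receptor Ghr (0.16 ± 0.08) were higher without overlap as well, and Igf1r, the receptor of Igf1, had 0.11 ± 0.20.

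Among the fuel genes, those of branched-chain amino acid and ketone use were higher on day 14. Of 23 measured 22 had the higher mean, 11 (47.8%) with an unadjusted p below 0.05 and 7 (30.4%) without overlap. The median was 0.23, a factor of 1.17. These differences are small, but so is the spread between rats. Bckdha, a subunit of the dehydrogenase that commits branched-chain keto acids to oxidation, read 8.69, 8.75, 8.83 and 8.63 on day 1, 8.77, 8.80, 8.70 and 8.61 on day 3 and 9.15, 9.23, 9.04 and 9.06 on day 14. All day 14 rats lay above all rats of both other days, and the difference was 0.39 ± 0.10 (adjusted p = 0.479). Ivd, which oxidises the leucine product isovaleryl-CoA, went from 13.31, 13.41, 13.63 and 13.45 to 13.83, 13.89, 13.89 and 13.92, with the day 14 rats close together above all day 1 rats and a difference of 0.43 ± 0.11. Dbt, the transacylase core of the same complex as Bckdha, differed by 0.61 ± 0.17, Bcat2, the aminotransferase of the first step, by 0.49 ± 0.17, and Mccc1, a subunit of the leucine pathway carboxylase, by 0.31 ± 0.10, all without overlap. On the ketone side Bdh1, the hydroxybutyrate dehydrogenase, had 0.015 ± 0.20, and Oxct1, the transferase that activates acetoacetate, 0.10 ± 0.10.

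Fatty acid oxidation genes were higher for 27 of 30, 6 of them with an unadjusted p below 0.05 and 8 (26.7%) without overlap. Their median was 0.13, or 1.09 times the day 1 level, and it was 0.23 after quantile normalization. Hadha, a subunit of the trifunctional enzyme, went from 17.09, 17.02, 16.98 and 17.00 to 17.19, 17.14, 17.22 and 17.43, a difference of 0.22 ± 0.09. Echs1, the hydratase of the second step, differed by 0.29 ± 0.11, the short-chain dehydrogenase Acads by 0.40 ± 0.12 with overlap, and Cpt1b, the muscle form of the carnitine transferase at the gate of the pathway, by 0.13 ± 0.10 without overlap. Where groups did not overlap the gap between them was small. Of the regulators, Ppara had 0.30 ± 0.13, Ppargc1a 0.15 ± 0.17 and Esrra 0.15 ± 0.11.

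Of the kinases that switch pyruvate dehydrogenase off, Pdk1 and Pdk2 had the higher means on day 14. Pdk2 read 15.48, 15.28, 15.50 and 15.26 on day 1 and 15.66, 15.82, 15.77 and 15.81 on day 14, and Pdk1 15.14, 15.09, 14.93 and 15.07 and 15.45, 15.50, 15.40 and 15.44. For both all day 14 rats lay above all day 1 rats, with differences of 0.38 ± 0.12 and 0.39 ± 0.13. Pdk3, below the bound, lay lower on day 14 without overlap (-0.17 ± 0.09). Pdk4, the isoform induced by fasting, spread over more than 1 unit within each day, from 13.49 to 14.80 on day 1, 13.22 to 16.91 on day 3 and 13.07 to 14.97 on day 14, with a difference of -0.044 ± 0.61. Its highest value on day 3 was that of rat 3. Glycolysis, glucose uptake and glycogen genes had a median of 0.024 over 36 members. The insulin-responsive transporter Slc2a4 was higher (0.31 ± 0.12, no overlap), and the hexokinases Hk1 (-0.19 ± 0.10) and Hk2 (0.26 ± 0.17), the transporter Slc2a1 (0.059 ± 0.22) and the lactate dehydrogenases Ldha (-0.088 ± 0.12) and Ldhb (0.047 ± 0.07) all overlapped. Pc, the carboxylase that refills the citric acid cycle, had 0.40 ± 0.12 without overlap, within a group of 27 with a median of 0.065. Complex I subunits, 31 of 38 with the higher mean, had a median of 0.076 and 0 members at an unadjusted p below 0.05, and complexes III to V had 0.045 over 34.

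Sarcomere genes had a median of 0.033 over 33, and 7 higher and 2 lower had an unadjusted p below 0.05. Xirp2, an actin-binding protein of the intercalated disc, read 15.56, 15.41, 15.60 and 15.31 on day 1, 15.88, 15.55, 15.97 and 15.84 on day 3 and 16.00, 15.96, 16.14 and 16.14 on day 14. The day 3 rats lay between the means of the other days, and the difference from day 1 to day 14 was 0.59 ± 0.15 (adjusted p = 0.479). Nrap, a protein of myofibril assembly, had 0.55 ± 0.19 and Mylk3, the cardiac myosin light chain kinase, 0.37 ± 0.15. Lower were Tpm2, the beta tropomyosin, from 10.06, 9.87, 9.84 and 10.93 to 9.54, 9.05, 8.93 and 8.26, and Acta1, the skeletal alpha-actin of the immature and loaded heart, from 17.55, 18.01, 17.53 and 17.77 to 17.26, 16.88, 16.57 and 16.97. Both groups were apart, the first by -1.23 ± 0.34 on average and the second by -0.79 ± 0.34, and on day 3 Acta1 ranged from 16.53 to 18.28. The adult troponin I, Tnni3, had -0.033 ± 0.08, and Tnni1, the fetal form, was below the bound throughout and had 0.26 ± 0.11. The beta-myosin Myh7 had 0.28 ± 0.18. Actc1, the cardiac actin, stood at 19.84 to 19.89 on day 1 and 19.84 to 19.85 on day 14, among the highest signals of the array. Myh6 had no probe set of its own symbol and was not analysed.

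Nppa, the atrial natriuretic peptide precursor, was 15.63, 15.83, 16.32 and 15.77 on day 1, 14.28 to 15.92 on day 3 and 15.01, 14.18, 15.37 and 13.82 on day 14. All day 14 rats lay below all day 1 rats, and the difference was -1.29 ± 0.54 with an adjusted p of 0.648. Its relative Nppb had 0.46 ± 0.32, with overlap. The atrial light chain Myl7 (5.36 to 5.93 on day 1, 5.32 to 5.76 on day 14) and Bmp10 (4.19 to 4.39 and 3.93 to 4.24) lay below the bound in every rat of both days.

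Both intervals around day 3 were fitted as well. Between day 3 and day 1 no transcript cluster passed (smallest adjusted p 0.99999) and 2443 (3.55%) had an unadjusted p below 0.05. Between day 14 and day 3 none passed either (smallest adjusted p 0.199), and 3972 (5.77%) had an unadjusted p below 0.05. These comparisons share arrays with the main one and with each other, so their values are set side by side only. The spindle group's median was -0.049 from day 1 to day 3 and -0.29 from day 3 to day 14, that of the fibrillar collagens -0.032 and -0.37, that of branched-chain amino acid and ketone genes 0.047 and 0.16, and that of fatty acid oxidation 0.013 and 0.11. For Mest the values were -0.31 ± 0.23 and -1.21 ± 0.23, for Mki67 -0.12 ± 0.35 and -1.22 ± 0.35, and for Postn -0.11 ± 0.32 and -1.36 ± 0.32. The day 3 rats differed among themselves in immediate early genes, the fast transcription factors of stimulated cells. Fos read 7.19, 7.03, 9.29 and 5.98 on day 3 and Egr1 8.54, 8.81, 11.32 and 7.77, rat 3 highest in both, while the day 1 rats had 5.01 to 6.68 and 7.55 to 8.65 and the day 14 rats 5.20 to 6.80 and 7.17 to 9.58. All 22 genes of that group had the higher mean on day 3 than on day 1, 3 with an unadjusted p below 0.05, against 1.39% of all genes. The group's score was 0.19, 0.44, 0.82 and -0.16 in the day 3 rats, and rat 4 lay within the day 1 range of -0.34 to 0.11. Of 19 clock genes 0 differed between day 14 and day 1 at that level, with 0.11 ± 0.33 for Bmal1, 0.01 ± 0.28 for Dbp, 0.068 ± 0.28 for Per2 and 0.63 ± 0.39 for Nr1d1.

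The same days in the rats fed 400 ppm rotenone, 4 on day 14 and 4 on day 1 with no array in common, were set against them. The difference between both changes passed limma's test (adjusted p below 0.05) for 58 transcript clusters, 14 with the higher change under rotenone and 44 with the lower, which is 0.0203% and 0.0639% of those tested (75.9% of the calls lower). The direction of most calls depended on the processing. It was lower for 87.7% after quantile normalization, but for 37.7% above the bound, 45.1% with array weights, 36.5% without rotenone day 14 rat 1, for 42 of 84 without control day 14 rat 1 and for 216 of 1439 with the first 2 within-group components removed. The count was 561 without rotenone day 14 rat 1 and 8 without control day 1 rat 4. Of the 17 fibrillar collagens 3 passed, all lower under rotenone, against 0.149% of all genes (0.0272% in the other direction). More of the red cell markers passed, 6 of 24, and 2 of the 17 basement membrane genes did, all lower too. Col3a1 changed by -1.02 in the controls and -4.06 in the rotenone rats, a difference of -3.04 ± 0.46 (SE, adjusted p = 0.0113). Col1a1 had -0.90 and -3.36 (difference -2.46 ± 0.41, adjusted p = 0.0211) and Col1a2 -0.67 and -2.71 (adjusted p = 0.0211). Mfap4, a microfibril-associated glycoprotein, had the smallest p, with -0.36 ± 0.23 in the controls against -2.84 under rotenone (difference -2.48 ± 0.32, adjusted p = 0.004).

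The spindle genes were lower on day 14 in both feeds, with medians of -0.33 in the controls and -0.73 under rotenone, but none of the 67 passed the test of the difference. Mki67 changed by -3.79 under rotenone, and its difference of -2.44 ± 0.50 had an adjusted p of 0.0681. Mest had -1.52 in the controls and -2.07 under rotenone, a difference of -0.55 ± 0.32 that did not pass (adjusted p = 0.656), and Postn had -1.47 and -2.02. The branched-chain amino acid and ketone genes had medians of 0.23 in the controls and 0.15 under rotenone, where 16 of 23 had the higher mean on day 14. For single genes the higher day 14 levels of the controls were partly met under rotenone, 0.54 for Bckdha against 0.39. They were partly not met, 0.013 for Ivd against 0.43. Only Bdh1 of that group passed the test of the difference, with -1.65 ± 0.29 (adjusted p = 0.0259). Of the 36 genes of glycolysis, glucose uptake and glycogen 1 passed too, with the lower change under rotenone. Slc25a21, the mitochondrial oxodicarboxylate carrier, was higher in the day 14 controls (0.68 ± 0.17) and had -0.67 under rotenone (adjusted p of the difference 0.0271). Cdkn1a (0.82 against -2.39, adjusted p = 0.044) and the clock activator Bmal1 (0.11 against -2.60, adjusted p = 0.0242) differed as well. The red cell transcripts Alas2, of heme synthesis, and Slc4a1, the anion exchanger, had 0.31 and 0.093 in the controls against -5.68 and -2.35 under rotenone (adjusted p = 0.00945 and 0.0156).

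**Figure D5:**
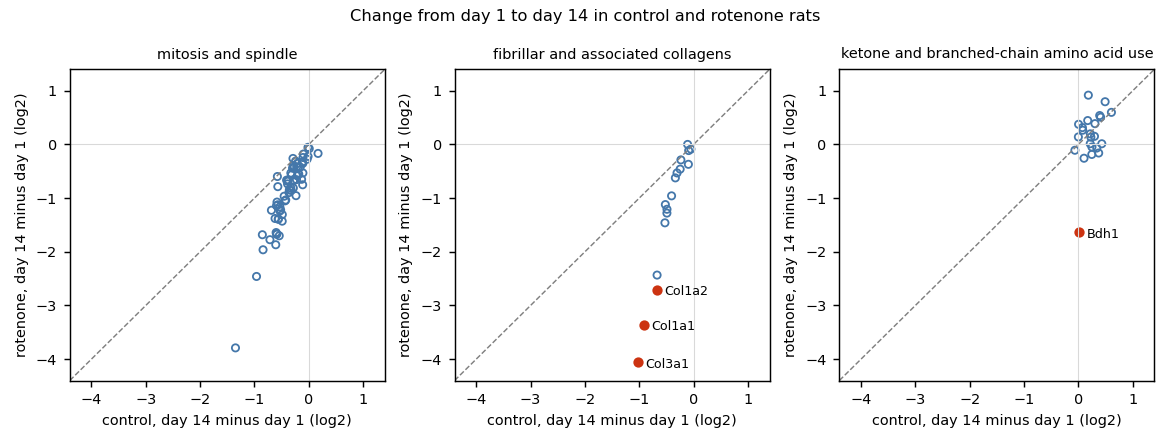
Change from day 1 to day 14 (log2 intensity) in control rats (horizontal axis) and in rats fed 400 ppm rotenone (vertical axis), 4 rats per group and day, for the spindle, fibrillar collagen, and branched-chain amino acid and ketone genes, 1 point a gene. On the dashed line both changes are equal. Filled points passed the test of the difference, which are Col1a1, Col1a2, Col3a1 and Bdh1, all below the line.

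The genes with the smallest p among those without overlap, 15 higher and 15 lower, include those not yet described. Mypn, the Z-disc and I-band protein myopalladin, went from 11.91, 11.69, 11.96 and 11.48 to 12.33, 12.39, 12.50 and 12.32, a difference of 0.63 ± 0.12 (adjusted p = 0.354). Lrrc2, a leucine-rich repeat gene, had 1.16 ± 0.25, and Ano5, a scramblase of the anoctamin family that is mutated in muscular dystrophy, 1.22 ± 0.29. Pink1, the kinase that marks damaged mitochondria, had 0.40 ± 0.10, Map1lc3a, an autophagosome protein, 0.62 ± 0.13, and Aldh4a1, a mitochondrial enzyme of proline breakdown, 0.54 ± 0.12. The chloride intracellular channel protein Clic5 had 0.51 ± 0.11, the glutathione transferase Gstm7 0.51 ± 0.12, Ccpg1, a receptor for autophagy of the endoplasmic reticulum, 0.46 ± 0.11, Selenoi, an ethanolamine phosphotransferase, 0.53 ± 0.13, and the odorant receptor Or52a5b, far below the bound, 0.74 ± 0.17. Lower were Lmnb1, a B-type lamin of the nuclear envelope, with -0.51 ± 0.11, Diaph3, a formin, with -0.58 ± 0.14, Lrat, the enzyme that esterifies retinol, with -0.79 ± 0.19, and Dpysl3, a collapsin response mediator of the cytoskeleton, with -0.68 ± 0.16. So were Cmtm6 (-0.58 ± 0.12), a membrane protein, Arl15 (-0.45 ± 0.10), a small GTPase, Tmem255a (-0.68 ± 0.16), Fxyd6 (-0.54 ± 0.12), a regulator of the sodium pump, and Tbc1d31 (-0.42 ± 0.10). Their adjusted p-values ran from 0.354 to 0.479. Of 25 heat shock and reticulum chaperones 22 had the higher mean on day 14, 8 with an unadjusted p below 0.05, and the median was 0.17. It was 0.068 from day 1 to day 3 and 0.050 from day 3 to day 14. The group's score was 0.40, 0.084, 0.080 and 0.15 in the day 14 rats. Rats 2 and 3 thus lay within the day 3 range of 0.049 to 0.096, and rat 1 stood far above. Bag3, the co-chaperone that maintains the Z-disc, was 12.45, 12.36, 12.58 and 11.88 on day 1 and 12.88, 13.06, 12.82 and 12.81 on day 14 without overlap (0.57 ± 0.15).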

How the data were processed

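RNA of the left ventricular apex was hybridised to Affymetrix Rat Transcriptome Array 1.0 chips, 1 rat a chip. The authors corrected for GC content, transformed the signal space and summarised with RMA, and deposited linear intensities in 1 table. For tool versions and the genome build, the sources used here give nothing. The intensities were taken as log2 without further normalization. Of 70580 entries, 1738 array controls were left out, and limma 3.58.1 (R 4.3.3) was fitted to 68842 transcript clusters as 6 group means over 24 arrays, with Benjamini-Hochberg adjustment over all of them. A gene is the brightest of its transcript clusters with 1 symbol in the platform annotation, 22093 genes in all. Other clusters of the genes named differed in the same direction, except 1 dim cluster of Dpysl3. Of 1040 list entries 980 were measured, 3 by a synonym. The members and lists were chosen with earlier results of these data known. Named are the 15 higher and 15 lower genes of smallest p without overlap, up to 6 genes of smallest p per list, a set of growth, matrix, fuel and clock genes, and the genes of smallest p in the test of feeds. Not every gene that this rule gives is named, and none of complex I is. Outside this rule, Aspm, Aurka, Bdh1, Bmp10, Cdh5, Dcn, Egr1, Fen1, Fos, Kif11, Myl7, Ncapg2, Nid1, Oxct1, Pcna, Pdgfra, Pdk3, Pecam1, Plvap, Smc4, Spc24, Tcf21 and the platelet and actin genes were named after their values were seen. The fit was tested on simulated data. Alternatives were other scalings, filters, variances, transcript cluster rules, arrays fitted, the methods' factorial test with a fold threshold, a replicate block and leaving out each rat. The number of chips limits the precision, and intensities carry no read depth. Promoters are RefSeq windows of GRCr8.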

Additional observations from a re-analysis of the deposited data

Results flagged for a closer look

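In each control group of 4 rats, the gap of the highest or lowest rat to its neighbour was divided by the group's range for the 150 genes named. It passed Dixon's critical value at 95% in 20 of 450 groups, and chance flags about 1 in 20. On day 1 these were rat 1 for Esrra (7.17), F2rl2 (4.07) and Mylk3 (15.81), rat 2 for Myh9 (12.63), and rat 4 for Dbt (14.78), Peg3 (10.60), Slc25a21 (6.61) and Slc2a4 (12.10). On day 3 they were rat 1 for Fxyd6 (8.22), rat 2 for Itga2b (6.23), Ndn (5.41), Rgs18 (7.91) and Stc1 (8.89), rat 3 for Plk1 (6.03) and Rrm2 (6.24), and rat 4 for Nrap (15.31). On day 14 they were rat 1 for Smc4 (9.53), rat 2 for Aurka (5.80) and rat 3 for Echs1 (16.09) and Hk2 (12.71).

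The change from day 1 to day 14 differed between rotenone and control rats by limma's test of the difference (adjusted p below 0.05) for 10 of the named genes, all with the lower change under rotenone. Part of the genes were named for their small p in this same test, so the count describes that choice. Over all 22093 genes 0.149% passed with the lower change and 0.0272% with the higher. The differences were -5.99 for Alas2, -3.21 for Cdkn1a, -3.04 for Col3a1, -2.72 for Bmal1, -2.48 for Mfap4, -2.46 for Col1a1, -2.44 for Slc4a1, -2.03 for Col1a2, -1.65 for Bdh1 and -1.35 for Slc25a21, on the log2 scale. In the controls Mfap4 read 12.28, 12.42, 12.60 and 12.43 on day 1 and 12.14, 11.86, 11.98 and 12.31 on day 14, with overlap, and Bmal1 10.27, 10.45, 10.52 and 10.36 and 10.63, 10.40, 10.49 and 10.51.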

How the results depend on the processing

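The count of 0 between day 14 and day 1 held with medians set equal, with quantile normalization, above the negative control bound, with only the 8 arrays compared, with the replicate block, with at least a 1.8-fold change and with only the 12 control arrays. It became 1 (Mest) above the median intensity, with 1 transcript cluster per gene, with trend and robust variances and with array weights. Leaving out 1 rat gave 0 to 4, the 4 (3 higher, 1 lower) without rat 1 of day 14. The methods' factorial test of time, at an unadjusted p below 1e-04 with a 1.8-fold change, gave 17, all lower. That threshold is not the adjusted p of the other counts, and the test's time term also holds the rotenone rats. Removing the first 2 within-group components, chosen after seeing the data, gave 685 (638 lower), 40 between day 3 and day 1, 595 between day 14 and day 3 and 1439 for the difference between feeds. These components (47.0% and 20.1% of the variance within groups) come from the same residuals, so the spread shrinks by construction. Between day 14 and day 3, 1 transcript cluster per gene gave 2.

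The 58 transcript clusters that differed between feeds (75.9% lower) became 38 with medians set equal (84.2% lower), 345 above the bound (37.7%), 193 above the median intensity (55.4%), 211 with 1 transcript cluster per gene (60.2%), 96 with trend and robust variances (62.5%), 206 with array weights (45.1%) and 17 with only the arrays compared (58.8%), with 87.7% lower among 65 after quantile normalization. Leaving out 1 rat gave 8 to 561. It moved the count by over 1.5 times without control day 1 rats 1 (17), 2 (33) and 4 (8), control day 14 rats 3 (27) and 4 (33), rotenone day 1 rats 1 (34), 2 (38), 3 (25) and 4 (36) and rotenone day 14 rats 1 (561, of them 356 higher and 205 lower), 2 (11) and 3 (16). Without control day 14 rat 1 it was 84, 42 either way, and with 2 components removed 1223 were higher and 216 lower.

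Among group medians, that of DNA replication was -0.33, cyclins 0.041, basement membrane -0.40, imprinted genes -0.092 and the IGF axis -0.12 over members above the bound alone, an alternative chosen after seeing the data. Without that limit the IGF axis was 0.028 with all transcript clusters averaged. Quantile normalization gave 0.23 for fatty acid oxidation, 0.092 for glycolysis, 0.15 for the citric acid cycle, 0.12 for creatine and energy transfer, 0.14 for the sarcomere and 0.15 for natriuretic peptides and calcium handling, and equal medians gave -0.027 for cardiomyocytes. Leaving out 1 rat gave -0.057 to 0.037 for the IGF axis, 0.17 to 0.25 for branched-chain amino acids and ketones, 0.0040 to 0.085 for the sarcomere, 0.063 to 0.10 for natriuretic peptides and calcium handling, -0.013 to 0.0011 for cardiomyocytes and 0.019 to 0.14 for skeletal and atrial muscle. Single rats also moved DNA replication to -0.093 (without day 14 rat 2), microfibrils to -0.12 (day 14 rat 3) and -0.13 (day 1 rat 2), fibroblasts to -0.18 (day 1 rat 2), collagen processing to -0.13 and the citric acid cycle to 0.041 (day 1 rat 4), cyclins to -0.026 (day 14 rat 4) and -0.068 (day 1 rat 4), and complex I to 0.11 (day 14 rat 2) and 0.036 (day 14 rat 4). Medians near 0 moved to either side or close to it, complexes III to V from -0.00093 to 0.059, red cells from -0.099 (without day 14 rat 3) to 0.16, leukocytes from -0.10 to 0.10, imprinted genes from -0.026 to 0.026 and glycolysis from 0.0010 to 0.044. No gene that had passed a test changed sign.

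Deviations of rats of the same number correlated above 0.1 in 3 of 4 pairs between day 1 and day 3 (0.41, 0.12, 0.80 and -0.13), in 0 of 4 between day 1 and day 14 (-0.62 to -0.47) and in 1 of 4 between day 3 and day 14, so the numbers were not taken to pair the rats. With the replicate number as a block 0 transcript clusters passed between day 14 and day 1 and 48 for the difference between feeds.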

Other observations

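A pair of gene groups was drawn up after the values were seen, so their counts are descriptions of a choice made on these rats. Platelet genes had higher means on day 14. All 16 measured had the higher mean, 8 with an unadjusted p below 0.05 and 9 without overlap. The median was 0.50 (0.38 to 0.70 leaving out 1 rat), and none passed the adjusted test. Over all 24 arrays only 1 of the 16 had a mean above the negative control bound, and the other members had dim signals. The group's mean level was 5.51 to 6.02 in the day 1 rats and 6.17 to 7.08 in the day 14 rats. Npy, stored by rodent platelets as well as nerves, read 7.54, 8.42, 8.38 and 7.74 on day 1, 7.59, 9.71, 8.15 and 7.91 on day 3 and 9.73, 9.81, 11.40 and 8.88 on day 14. Rat 3 of day 14 was highest and rat 2 of day 3 stood within the day 14 range. The difference was 1.93 ± 0.63. Cd226, an adhesion receptor of platelets and lymphocytes, had 5.26, 5.99, 6.05 and 5.32 on day 1 and 6.57, 6.99, 8.05 and 6.33 on day 14, again highest in rat 3, and a difference of 1.33 ± 0.42. Clec1b, the podoplanin receptor, differed by 1.16 ± 0.44, the thrombin receptor F2rl2 by 1.12 ± 0.31, Rgs18 by 0.95 ± 0.32, the platelet tubulin Tubb1 by 0.78 ± 0.29, the integrin Itga2b by 0.30 ± 0.15 and the chemokine Pf4, which overlapped, by 0.95 ± 0.53. The group's score was -0.32, 0.13, 0.19 and 0.018 in the day 1 rats, -0.11, 0.49, 0.25 and 0.00074 on day 3 and 0.36, 0.52, 1.08 and 0.28 on day 14. Red cell markers, which also come with blood, had a median of 0.064 over 24, with mean levels of 8.88 to 9.23 on day 1 and 8.74 to 9.65 on day 14. The part of blood left in the tissue was not tested.

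Genes of the nonmuscle actin cytoskeleton and the lamina were lower. Of 20 chosen 19 had the lower mean on day 14, 14 with an unadjusted p below 0.05 and 10 without overlap, and the median was -0.39 (-0.46 to -0.32 leaving out 1 rat). None passed the adjusted test. Actg1, the cytoplasmic gamma-actin, went from 15.91, 16.21, 16.14 and 16.28 to 15.63, 15.19, 15.11 and 15.80, with day 14 rats 2 and 3 lowest and a difference of -0.70 ± 0.16. The actin crosslinker Flna (-0.71 ± 0.18), the depolymerising factor Dstn (-0.59 ± 0.14) and the bundling protein Fscn1 (-0.64 ± 0.16) did not overlap either, nor did Tpm4 (-0.43 ± 0.15), Myh9 (-0.43 ± 0.16) and Cfl1 (-0.28 ± 0.10). The endothelial, fibroblast and smooth muscle markers had lower medians on day 14 too, -0.31, -0.29 and -0.24. Their part in these differences was not tested. The order of the day 14 rats differed between the groups. Rats 1 to 4 scored -0.18, -0.56, -0.45 and -0.33 for the actin group and -0.23, -0.46, -0.58 and -0.13 for fibroblasts. For endothelial markers they scored 0.020, -0.46, -0.063 and -0.56, and for smooth muscle -0.31, -0.14, -0.22 and -0.39.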
